A study of Homo sapiens with 30 samples.

Results

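Of the 27348 genes in both count tables, 8 that set how a cell makes, binds and receives Activin were followed by name through every RNA group of the study. They were taken by name, with no threshold on their values: the subunit genes INHBA, INHBB and INHBE, the antagonist genes FST and FSTL3, and the receptor genes ACVR2A, ACVR2B and ACVR1B. Their Entrez gene IDs in the tables are 3624 (INHBA), 3625 (INHBB), 83729 (INHBE), 10468 (FST), 10272 (FSTL3), 92 (ACVR2A), 93 (ACVR2B) and 91 (ACVR1B). All 8 passed the filter on low counts and were tested.

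Activins are secreted dimers of inhibin beta subunits, and 2 copies of the INHBA product make Activin A. The ligand binds a type II receptor (ACVR2A or ACVR2B), which then phosphorylates a type I receptor (ACVR1B, also called ALK4), and the active complex phosphorylates SMAD2 and SMAD3, which enter the nucleus with SMAD4. Follistatin (FST) and follistatin-like 3 (FSTL3) bind Activin outside the cell and keep it from the type II receptors. In human embryonic stem cells this pathway helps to hold pluripotency, and with Wnt signalling it directs cells through a primitive streak state to endoderm.

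The cells were RUES2, an established human embryonic stem cell line, kept in TeSR E7 medium with a rock inhibitor. RNA counts covered 16 libraries, 2 in each of 8 groups. At 24 h these were E7 (no factor added), E7_CPI (CPI-203 at 1 µM), WNT (Wnt3a at 100 ng/mL) and WNT_CPI (both). At 48 h they were E7_ACT (no Wnt3a on day 1, Activin A at 10 ng/mL on day 2), WNT_E7 (Wnt3a on day 1, medium without Activin A on day 2), WNT_ACT (Wnt3a, then Activin A) and WNT_CPI_ACT (Wnt3a and CPI-203 together on day 1, Activin A on day 2). CPI-203 blocks the bromodomains of the BET proteins, which bind acetylated chromatin and help RNA polymerase II into elongation. The added Activin A is a protein and does not enter the RNA counts. All values come from 1 cell line, and the labels do not say whether the replicates were separate cultures, so the p-values speak only to the spread among these libraries, which may be technical. The groups at 24 h and at 48 h differ in time as well as in what was added, and these cannot be told apart between days.

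Totals were 36268324 to 43347733 counts per library. HEXIM1, whose RNA rises under BET inhibition, stood at 276.7 to 309.4 CPM (counts adjusted for the size of the library) in the 4 libraries of E7_CPI and WNT_CPI and at 58.9 to 97.7 CPM in the other 12. SP5, a direct Wnt target, had 403 to 4251 counts in the 10 libraries given Wnt3a and 0 to 6 in the other 6. All 8 stem cell markers were at 1 CPM or more in every group, with summed levels of 4026 to 8857 CPM. Of 9 fibroblast markers, 5 or 6 were at 1 CPM or more, led by THY1, COL1A1 and COL1A2, while the defining markers DCN and LUM had 0 and 0 to 1 counts and COL3A1 0 to 5 counts. The values of E7_CPI replicate 1 were out of step with the gene names beside them and were read in the order of the replicate 2 table, where their Spearman correlations with the other libraries were 0.954 to 0.986. The 2 E7_CPI libraries were then far more alike than any other pair: the chi-square of a gene's counts between the 2 libraries had a median of 2.48 times what counting noise gives, against 33.1 to 69.8 times in the other 7 groups. Calls on the 8 genes that rest on E7_CPI are therefore given with and without its replicate 1. All 8 groups share 1 estimate of the spread, so this close pair also bears on p-values of comparisons without E7_CPI. Leaving that library out lowered the number of genes called in most of those as well.

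The promoters of an antagonist, a subunit and a receptor gene whose RNA changed are shown because they differ in base composition. Each is the 250 bases before the RefSeq start (GRCh38.p14), 5′ to 3′ on the gene's strand, with capitals on every match, on either strand, to the TCF/LEF core CTTTG, the SMAD box CAGAC, the TATA box TATAAA or the GC box GGGCGG.
FST, chr5:53480379-53480628, plus strand: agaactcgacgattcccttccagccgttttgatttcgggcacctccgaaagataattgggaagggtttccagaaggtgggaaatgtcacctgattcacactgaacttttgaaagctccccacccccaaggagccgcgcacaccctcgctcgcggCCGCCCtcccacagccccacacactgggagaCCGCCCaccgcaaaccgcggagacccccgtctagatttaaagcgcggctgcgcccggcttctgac
INHBA, chr7:41703091-41703340, minus strand: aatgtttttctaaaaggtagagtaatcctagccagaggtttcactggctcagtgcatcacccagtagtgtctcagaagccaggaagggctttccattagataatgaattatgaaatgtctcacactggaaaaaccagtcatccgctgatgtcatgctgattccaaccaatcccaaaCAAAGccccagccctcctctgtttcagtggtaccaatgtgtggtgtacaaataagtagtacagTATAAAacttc
ACVR2B, chr3:38453640-38453889, plus strand: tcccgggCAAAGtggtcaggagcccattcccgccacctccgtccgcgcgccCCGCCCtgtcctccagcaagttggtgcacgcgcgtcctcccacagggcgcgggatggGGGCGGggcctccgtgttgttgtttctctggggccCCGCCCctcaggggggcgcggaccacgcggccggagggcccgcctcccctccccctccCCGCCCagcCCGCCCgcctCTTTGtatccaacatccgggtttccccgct
The FST window holds 2 GC boxes, 20 CpG and 60.0% G and C, and no match to the other 3 motifs. The INHBA window holds a TATA box, 1 TCF/LEF core, 1 CpG and 42.8% G and C, and it lies within the longest annotated span of the gene. The ACVR2B window holds 5 GC boxes, 2 TCF/LEF cores, 26 CpG and 74.0% G and C. Over 35116 such windows of 250 bases, the TCF/LEF core occurs in 42.07%, the SMAD box in 38.0%, the TATA box in 10.72% and the GC box in 42.64%. These matches describe the letters only.

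**Figure D1:**
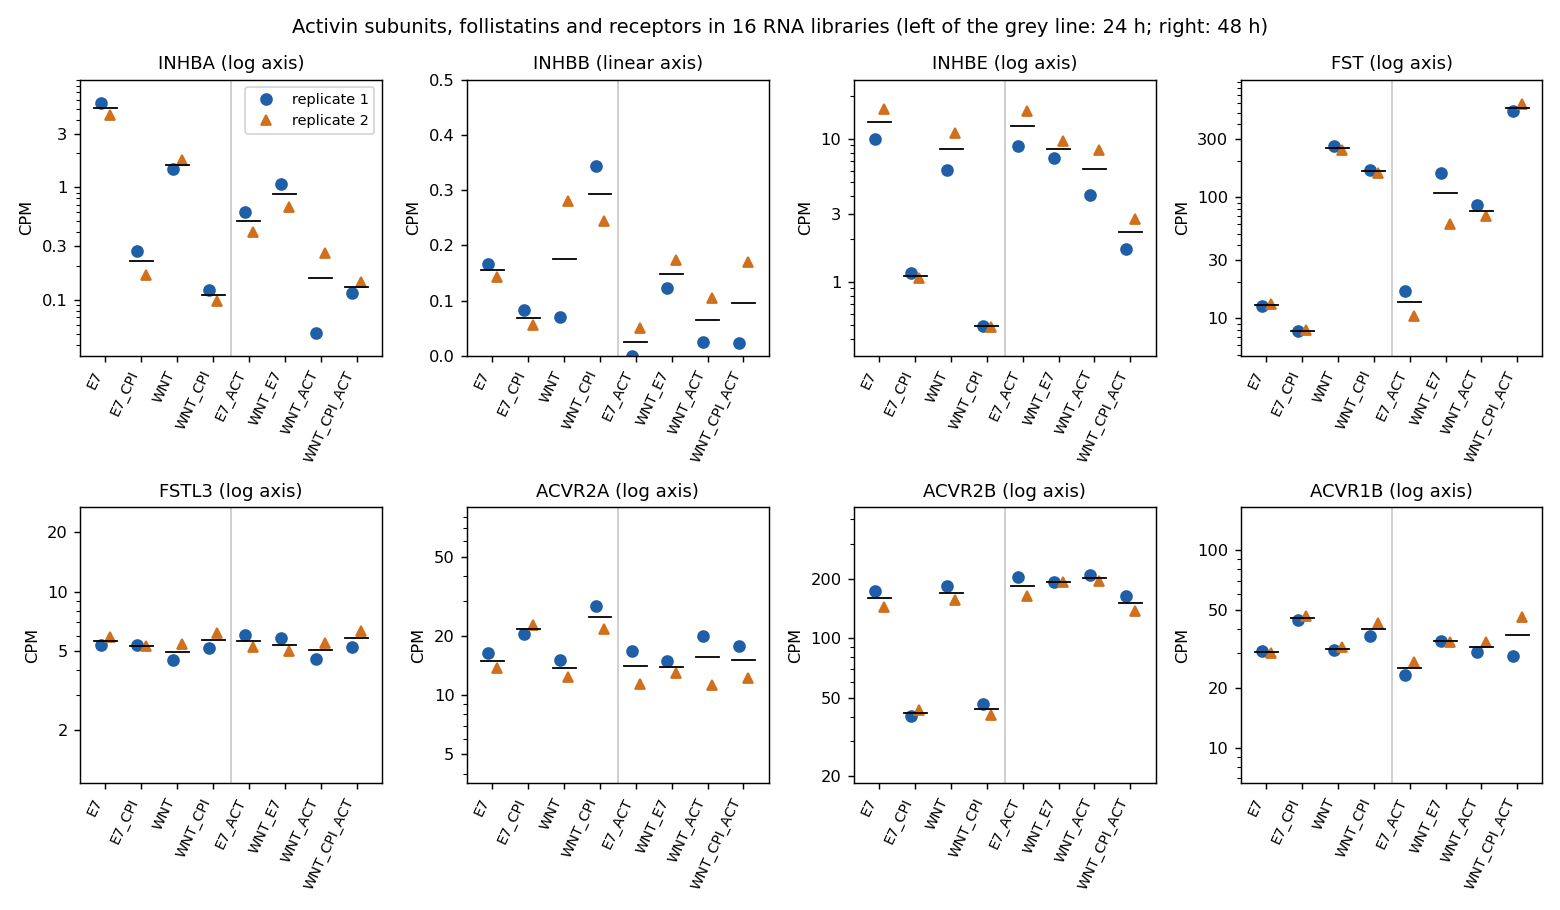
Levels of the 8 genes in CPM (y axis) by group (x axis), with 1 point per library and a bar at the mean of 2 libraries. FST is higher in every group given Wnt3a than in those without it, and INHBE and ACVR2B are lowest in E7_CPI and WNT_CPI. INHBA is low in those groups and as low in WNT_ACT and WNT_CPI_ACT.

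Of the ligand subunits, INHBA was expressed at its highest level in untreated cells and was lower in all the other groups. Its level was 5.65 and 4.39 CPM in E7 (replicates 1 and 2), 1.45 and 1.73 CPM in WNT, 0.274 and 0.167 CPM in E7_CPI and 0.122 and 0.0973 CPM in WNT_CPI. At 48 h it was 0.601 and 0.405 CPM in E7_ACT, 1.06 and 0.672 CPM in WNT_E7, 0.0513 and 0.264 CPM in WNT_ACT and 0.115 and 0.145 CPM in WNT_CPI_ACT. The 2 libraries of E7 lay above those of every other group, and the lowest 4 groups, E7_CPI, WNT_ACT, WNT_CPI_ACT and WNT_CPI, overlapped each with the next in order. The lower levels rest on few reads: 10 and 6 counts in E7_CPI, 5 and 4 in WNT_CPI, 2 and 10 in WNT_ACT and 5 and 6 in WNT_CPI_ACT.

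CPI-203 lowered INHBA both without and with Wnt3a. In E7_CPI against E7 the log2 fold change was -4.49 (standard error, SE, 0.54; adjusted p = 0.000175), and without E7_CPI replicate 1 it was -4.88 (adjusted p = 0.0033). In WNT_CPI against WNT it was -3.82 (SE 0.57, adjusted p = 0.000596). Adjusted p-values here and below are from edgeR's quasi-likelihood test with Benjamini-Hochberg adjustment over the 17355 genes tested, and calls need a value under 0.05.

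Markers moved with the CPI-203 groups at 24 h. The summed level of the 8 stem cell markers was 4739 to 4814 CPM in E7_CPI and 4026 to 4247 CPM in WNT_CPI, against 7564 to 8507 CPM in E7 and 7397 to 8144 CPM in WNT. That of 6 trophoblast and amnion markers was 3.99 to 4.53 CPM in E7_CPI and 3.80 to 5.99 CPM in WNT_CPI, against 18.1 to 23.9 CPM in E7 and 9.63 to 14.5 CPM in WNT. Its members went both ways: KRT7 and GABRP fell by 3.11 and 3.39 on the log2 scale in E7_CPI against E7, while HAND1 and TFAP2A rose by 5.95 and 2.01, and the same 4 directions were called in WNT_CPI against WNT. The fibroblast sum was 770.8 to 779.7 CPM in E7_CPI and 656.1 to 917.9 CPM in E7, and 447.8 to 561.0 CPM in WNT_CPI and 491.8 to 746.6 CPM in WNT. Within it FBN1 rose by 2.70 in E7_CPI against E7, and PDGFRB, POSTN and COL1A2 fell by 2.30, 2.82 and 0.57, with the same directions called with Wnt3a. The sum of 4 neuroectoderm markers was 4.03 to 4.27 CPM in E7_CPI against 2.45 to 3.37 CPM in E7, and 4.90 to 6.57 CPM in WNT_CPI against 2.30 to 2.66 CPM in WNT. That of 5 endoderm markers was 10.02 to 10.04 CPM in E7_CPI against 3.08 to 5.60 CPM in E7, and 6.15 to 9.61 CPM in WNT_CPI against 2.83 to 5.53 CPM in WNT. So the stem cell and trophoblast sums were lower and the neuroectoderm and endoderm sums higher with CPI-203, with no overlap, while the fibroblast sums overlapped. Not every marker followed its sum. CXCR4 led the endoderm rise, from 0.644 CPM in E7 to 6.13 CPM in E7_CPI, and from 0.682 to 5.22 CPM with Wnt3a. FOXA2 went from 3.54 to 3.06 CPM and from 3.38 to 1.18 CPM (not called). Among neuroectoderm markers POU3F2 was called higher in both, ZIC1 with Wnt3a only, and PAX6 and SOX1 in neither. SOX2 went against the stem cell sum in E7_CPI, at 413.2 CPM beside 316.6 CPM in E7 (not called). The part of these markers in the values of INHBA, INHBE and the receptors was not tested. In bulk RNA, fewer cells that make a transcript and less of it per cell cannot be told apart.

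After a day with Activin A there was also less RNA of INHBA, the gene for its own subunit. E7_ACT and E7 differ in time (48 h and 24 h) as well as in Activin A. In WNT_E7 against WNT, a later day without Activin A, INHBA also stood lower, at a log2 fold change of -0.87 (SE 0.46) that was not called. In E7_ACT against E7 the log2 fold change was -3.31 (SE 0.49, adjusted p = 0.0184), but leaving out any 1 of the 4 libraries ended the call: the adjusted p was 0.184 without E7 replicate 1, 0.146 without E7_ACT replicate 1, 0.0924 without E7 replicate 2 and 0.134 without E7_ACT replicate 2. Among cells that had Wnt3a first, at the same time point, WNT_ACT stood at a log2 fold change of -2.45 against WNT_E7 (SE 0.55, adjusted p = 0.07). That comparison was called with the replicate number as a block (adjusted p = 0.0237) and without WNT_ACT replicate 2, the higher of its 2 libraries (log2 fold change -4.00, adjusted p = 0.019). In WNT_ACT against E7_ACT its log2 fold change was -1.67 (adjusted p = 0.17), which moved to -3.22 without WNT_ACT replicate 2 (adjusted p = 0.0268) and to -0.93 without WNT_ACT replicate 1 (adjusted p = 0.583). After a day of Wnt3a alone INHBA was lower in WNT than in E7, by a log2 fold change of -1.65 that did not pass the test (SE 0.45, adjusted p = 0.242) but did with the block (adjusted p = 0.0492).

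INHBE encodes the beta E subunit, made chiefly in liver, and its RNA fell with CPI-203 as well. It stood at 10.0 and 16.2 CPM in E7, 6.05 and 11.0 CPM in WNT, 1.15 and 1.06 CPM in E7_CPI and 0.490 and 0.487 CPM in WNT_CPI. At 48 h it was 8.92 and 15.6 CPM in E7_ACT, 7.36 and 9.65 CPM in WNT_E7, 4.02 and 8.35 CPM in WNT_ACT and 1.70 and 2.73 CPM in WNT_CPI_ACT. The 3 groups that had CPI-203 lay below the other 5 with no overlap, while those 5 overlapped each with the next in order.

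The log2 fold change of INHBE was -3.56 in E7_CPI against E7 (SE 0.49, adjusted p = 0.000371) and -4.12 in WNT_CPI against WNT (SE 0.51, adjusted p = 0.000205). Without E7_CPI replicate 1 the first was -3.62 (adjusted p = 0.0073). A day later, INHBE had risen from WNT_CPI to WNT_CPI_ACT by 2.17 on the log2 scale (SE 0.49, adjusted p = 0.00791). Against WNT_ACT its log2 fold change was then -1.48, which did not pass the test (SE 0.45, adjusted p = 0.0841) but did with the block (adjusted p = 0.00317). The rise to WNT_CPI_ACT lost its call without WNT_CPI replicate 1 (2.18, adjusted p = 0.0534), without WNT_CPI replicate 2 (2.17, adjusted p = 0.057) and without WNT_CPI_ACT replicate 2 (1.79, adjusted p = 0.0511). In WNT_ACT against E7_ACT its log2 fold change of -0.99 was called with the block alone (adjusted p = 0.351 without it, 0.0207 with it).

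INHBB, the gene of the beta B subunit found in Activin B and Activin AB, had 0 to 14 counts in every library, or 0 to 0.343 CPM. None of 12 comparisons was called for it by edgeR (lowest adjusted p = 0.219), and at these counts a difference was not detectable.

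Of the antagonists, FST changed more than any other of the 8 genes, over a range of 6.10 in log2 group means. It stood at 12.6 and 13.1 CPM in E7, 7.85 and 7.95 CPM in E7_CPI, 266 and 247 CPM in WNT and 168 and 159 CPM in WNT_CPI. At 48 h it was 16.9 and 10.4 CPM in E7_ACT, 158 and 60.4 CPM in WNT_E7, 85.3 and 69.8 CPM in WNT_ACT and 512 and 583 CPM in WNT_CPI_ACT. Every library given Wnt3a was above every library without it, and the 2 libraries of WNT_CPI_ACT were above all the others. In order of level, only WNT_E7 with WNT_ACT and E7_ACT with E7 overlapped.

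A day of Wnt3a raised FST by 4.32 on the log2 scale (SE 0.40, adjusted p = 0.000815), and in the presence of CPI-203 by 4.37 (SE 0.40, adjusted p = 0.000709, or 4.36 and 0.035 without E7_CPI replicate 1). The difference between these 2 responses was 0.05 (SE 0.50, 95% interval -1.05 to 1.15). Within that interval a difference either way was not detectable in this fit, which has no replicate block. Without E7_CPI replicate 1 the difference between the 2 responses was 0.04 (SE 0.59). The summed level of 5 primitive streak markers moved with FST, from 2.01 to 2.05 CPM in E7 to 29.9 to 44.9 CPM in WNT, and from 4.01 to 4.07 CPM in E7_CPI to 35.2 to 45.4 CPM in WNT_CPI. EOMES made up most of the sum with Wnt3a, at means of 31.36 CPM in WNT and 35.15 CPM in WNT_CPI. By edgeR it was called in WNT against E7 (7.43, adjusted p = 0.0336) but not in WNT_CPI against E7_CPI (4.28, adjusted p = 0.225). TBXT, MIXL1, GSC and TBX6 were called in neither. TBX6 was lower in WNT_CPI (0.39 CPM) than in E7_CPI (0.498 CPM). The part of the streak markers in the FST values was not tested. Among the 8 genes edgeR called FST and no other in WNT against E7, where 0.605% of all genes tested were called (0.484% higher), and DESeq2 and the replicate block called INHBA there as well (adjusted p = 0.00654 and 0.0492). In WNT_CPI against E7_CPI, edgeR, DESeq2 and the block each called FST and no other, where 0.386% of all genes were called by edgeR (0.317% higher). With CPI-203 the log2 fold changes of FST were -0.70 without Wnt3a (SE 0.36, adjusted p = 0.163, or -0.69 and 0.363 without E7_CPI replicate 1) and -0.65 with it (SE 0.35, adjusted p = 0.19), and neither passed the test. In the test of whether the Wnt3a response differs with and without CPI-203, 0 of the 8 genes were called by edgeR or DESeq2 (0 at an unadjusted p under 0.05), beside 0.0115% of all genes (2 genes by edgeR, with 442 at an unadjusted p under 0.05 and 37 called by DESeq2).

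At 48 h FST was higher with CPI-203 on day 1 than without it. It was higher in WNT_CPI_ACT than in WNT_ACT by 2.82 on the log2 scale, a ratio of 7.06 (SE 0.37, adjusted p = 0.00263), and higher than in WNT_CPI a day before by 1.75 (SE 0.36, adjusted p = 0.00464). It was higher in WNT_ACT than in E7_ACT, which had no Wnt3a, by 2.51 (SE 0.37, adjusted p = 0.00593), a call lost without E7_ACT replicate 2 (2.20, adjusted p = 0.0527). Activin A did not move FST past the test: the log2 fold change was 0.09 in E7_ACT against E7 and -0.49 in WNT_ACT against WNT_E7 (adjusted p = 0.839), and the latter was 0.36 without WNT_E7 replicate 1. In WNT_E7 against WNT it was -1.23 (SE 0.35, adjusted p = 1), which moved to -2.09 without WNT_E7 replicate 1 and to -0.71 without WNT_E7 replicate 2.

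Sums of cell fate markers went the other way from FST at 48 h, toward lower levels in WNT_CPI_ACT than in WNT_ACT. The summed level of 5 primitive streak markers was 229.3 to 1424 CPM in WNT_ACT and 38.1 to 251.5 CPM in WNT_CPI_ACT, so the ranges overlapped. That of 5 endoderm markers was 172.7 to 2240 CPM and 1.06 to 166.2 CPM. CER1 was the largest part of the endoderm sum in WNT_ACT, at 1970 and 122.5 CPM (replicates 1 and 2), and stood at 138 and 0 CPM in WNT_CPI_ACT. The size of the endoderm sums thus rests largely on 1 library per group, but the sums did not overlap. SOX17 stood at 7.54 to 41.5 CPM in WNT_ACT and at 0 to 5.98 CPM in WNT_CPI_ACT. In the same order FOXA2 stood at 29.9 to 83.7 CPM and 0.121 to 11.7 CPM. GATA6 stood at 11.0 to 142.8 CPM and 0.0484 to 9.67 CPM, and CXCR4 at 1.79 to 2.05 CPM and 0.825 to 0.895 CPM. The part of both lists in these FST values was not tested.

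FSTL3, which binds Activin and related ligands as FST does, stood between 4.50 and 6.36 CPM over all 16 libraries, and every group overlapped the next in order. Its log2 differences ran from -0.18 to 0.27 over 12 comparisons and none was called (lowest adjusted p = 0.503).

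**Figure D2:**
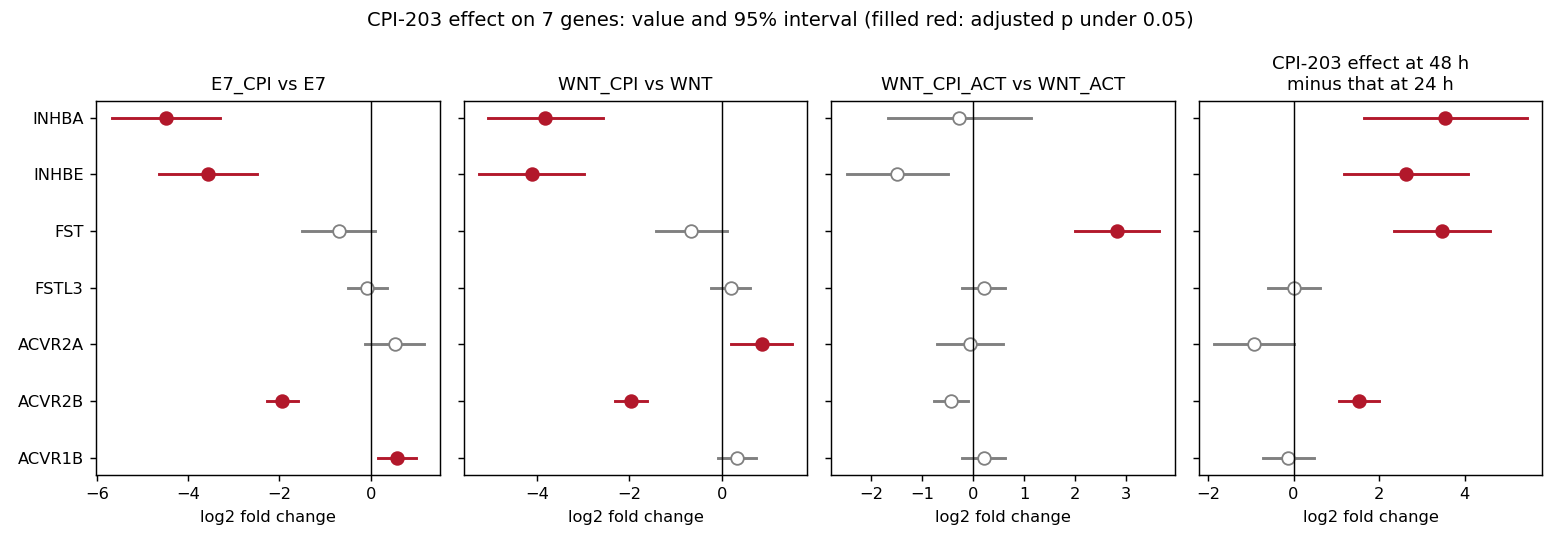
Log2 fold changes (x axis) of 7 genes for CPI-203 without Wnt3a, with Wnt3a, at 48 h after Activin A, and for the 48 h effect minus that at 24 h with Wnt3a. Bars show the 95% interval, filled points passed the test, and INHBB, with few counts, is left out. INHBA, INHBE and ACVR2B lie to the left of 0 at 24 h, and FST lies at 2.82 at 48 h.

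Of the receptors, ACVR2B, a type II receptor that binds Activin with high affinity, fell with CPI-203. It stood at 174 and 145 CPM in E7, 184 and 157 CPM in WNT, 40.2 and 43.1 CPM in E7_CPI and 46.5 and 40.9 CPM in WNT_CPI. At 48 h it was 204 and 163 CPM in E7_ACT, 192.6 and 193.5 CPM in WNT_E7, 210.2 and 195 CPM in WNT_ACT and 163 and 138 CPM in WNT_CPI_ACT. The 4 libraries with CPI-203 at 24 h (40.2 to 46.5 CPM) were below all 12 others, the lowest of which was at 138 CPM.

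Its log2 fold change was -1.93 in E7_CPI against E7 (SE 0.16, adjusted p = 1.65e-05) and -1.96 in WNT_CPI against WNT (SE 0.16, adjusted p = 1.29e-05). Without E7_CPI replicate 1 the first was -1.88 (adjusted p = 0.000735). The Wnt3a responses with and without CPI-203 differed by -0.03 (95% interval -0.50 to 0.44), or by -0.08 without E7_CPI replicate 1 (95% interval -0.65 to 0.49). From WNT_CPI to WNT_CPI_ACT ACVR2B rose by 1.78 (SE 0.16, adjusted p = 3.15e-05), to a level whose range overlapped that of E7. Against WNT_ACT it stood at a log2 fold change of -0.43 (SE 0.15, adjusted p = 0.136), called with the block alone (adjusted p = 0.0189). The transcript ACVR2B-AS1, on the opposite strand, was at 2.67 to 2.90 CPM in E7_CPI and WNT_CPI and at 3.12 to 5.90 CPM in the other 12 libraries. Whether the counting used strand is not given in the sources used here, so reads of the 2 genes cannot be told apart. INHBA-AS1 had 0 to 9 counts per library.

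ACVR2A, the other type II receptor, stood at 16.2 and 13.7 CPM in E7, 20.4 and 22.6 CPM in E7_CPI, 15.0 and 12.3 CPM in WNT and 28.2 and 21.6 CPM in WNT_CPI. At 48 h it was 16.8 and 11.3 CPM in E7_ACT, 14.8 and 12.9 CPM in WNT_E7, 19.9 and 11.3 CPM in WNT_ACT and 17.7 and 12.2 CPM in WNT_CPI_ACT. The 2 groups with CPI-203 at 24 h lay above the rest. In WNT_CPI against WNT the log2 fold change was 0.86 (SE 0.30, adjusted p = 0.0483), a call that was lost without E7_CPI replicate 1 (adjusted p = 0.0691), without WNT replicate 1 (adjusted p = 0.0966), without WNT_CPI replicate 1 (adjusted p = 0.228), without WNT replicate 2 (adjusted p = 0.22) and without WNT_CPI replicate 2 (adjusted p = 0.0664), and that stood with the block (adjusted p = 0.0033). In E7_CPI against E7 it was 0.52 (adjusted p = 0.205, or 0.0319 with the block and 0.312 without E7_CPI replicate 1), and from WNT_CPI to WNT_CPI_ACT -0.74 (adjusted p = 0.0932, or 0.00836 with the block).

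ACVR1B, the type I receptor that phosphorylates SMAD2 and SMAD3, stood at 30.9 and 30.2 CPM in E7, 44.5 and 46.5 CPM in E7_CPI, 31.1 and 32.4 CPM in WNT and 36.9 and 43.0 CPM in WNT_CPI. At 48 h it was 23.4 and 27.3 CPM in E7_ACT, 34.9 and 34.5 CPM in WNT_E7, 30.6 and 34.2 CPM in WNT_ACT and 29.0 and 45.8 CPM in WNT_CPI_ACT. It was called higher in E7_CPI than in E7, at a log2 fold change of 0.58 (SE 0.19, adjusted p = 0.0393), but not without E7 replicate 1 (adjusted p = 0.131), without E7_CPI replicate 1 (adjusted p = 0.118), without E7 replicate 2 (adjusted p = 0.136) or without E7_CPI replicate 2 (adjusted p = 0.161). In WNT_CPI against WNT it was 0.33 (adjusted p = 0.221).

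Counted over the 8 genes, 1 rose and 3 fell in E7_CPI against E7, where 32.7% of all genes were called (15.0% higher, 17.6% lower), and 1 rose and 3 fell in WNT_CPI against WNT, where 31.0% were (13.0% higher, 17.9% lower). With so many genes called, 4 of 8 is not far from the background. Without E7_CPI replicate 1, 0 rose and 3 fell in each, beside 17.5% (9.30% lower) and 26.5% (15.6% lower) of all genes. In E7_ACT against E7, 1 fell, beside 0.599% of all genes (0.202% lower). In WNT_ACT against WNT_E7 none was called by edgeR (1 at an unadjusted p under 0.05), beside 0.882% of all genes (1747 genes at an unadjusted p under 0.05), while the block and DESeq2 each called INHBA. In WNT_E7 against WNT none was called by edgeR or DESeq2 (1 at an unadjusted p under 0.05), beside 0.00% (0 genes by edgeR, 397 at an unadjusted p under 0.05, 12 by DESeq2). FST alone rose in WNT_ACT against E7_ACT, beside 3.84% (2.48% higher), and alone again in WNT_CPI_ACT against WNT_ACT, beside 5.90% (1.90% higher). The 3 genes FST, INHBE and ACVR2B rose from WNT_CPI to WNT_CPI_ACT, beside 26.9% (14.9% higher). With the replicate block, the share of all genes called was 1.72% in WNT against E7, 50.8% in E7_CPI against E7, 47.4% in WNT_CPI against WNT, 1.49% in WNT_CPI against E7_CPI and 0.127% for the difference of the Wnt3a responses. It was 2.79% in E7_ACT against E7, 4.45% in WNT_ACT against WNT_E7, 0.0230% in WNT_E7 against WNT, 8.69% in WNT_ACT against E7_ACT, 15.1% in WNT_CPI_ACT against WNT_ACT and 42.7% from WNT_CPI to WNT_CPI_ACT.

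The effect of CPI-203 at 48 h, WNT_CPI_ACT against WNT_ACT, was also set against its effect at 24 h, WNT_CPI against WNT, a comparison added after the values were seen. The 2 contrasts share no library. The log2 fold change was higher at 48 h by 3.47 for FST (SE 0.51, adjusted p = 0.00171), 1.53 for ACVR2B (SE 0.21, adjusted p = 0.00134), 3.55 for INHBA (SE 0.86, adjusted p = 0.0211) and 2.64 for INHBE (SE 0.65, adjusted p = 0.0233). These 4 of 8 were called beside 13.3% of all genes (7.73% higher). With the block 5 of 8 were called (4 higher and 1 lower), beside 26.9% of all genes. INHBA had 12 counts over the 2 libraries of WNT_ACT and 11 over those of WNT_CPI_ACT. A fall of INHBA with CPI-203 at 48 h could thus hardly have shown, and its difference largely restates its fall at 24 h (-3.82). The call of INHBA was lost without WNT_CPI replicate 1 (3.72, adjusted p = 0.0555), without WNT replicate 2 (3.42, adjusted p = 0.056), without WNT_CPI replicate 2 (3.40, adjusted p = 0.0734) and without WNT_CPI_ACT replicate 2 (3.38, adjusted p = 0.0775). The call of INHBE was lost without WNT_CPI replicate 1 (2.64, adjusted p = 0.0765), without WNT_ACT replicate 1 (2.20, adjusted p = 0.0673), without WNT replicate 2 (2.14, adjusted p = 0.0836), without WNT_CPI replicate 2 (2.64, adjusted p = 0.0803) and without WNT_CPI_ACT replicate 2 (2.25, adjusted p = 0.0788). INHBA also moved to 2.81 without WNT_ACT replicate 1 and to 5.11 without WNT_ACT replicate 2, and INHBE to 3.26 without WNT_ACT replicate 2. For ACVR2A the difference was -0.93 (adjusted p = 0.19, or 0.0283 with the block).

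Genes whose pattern was most like each of the more variable members were named by Pearson's r of log2 CPM over the 16 libraries, which share treatments and depth. FST was followed most closely by SP8, a zinc finger factor (r = 0.978), WNT5B, a Wnt ligand (r = 0.948), and RNF43, a Wnt-induced antagonist of Wnt receptors (r = 0.947). INHBA was followed by SH2D5 (r = 0.941), BTBD17 (r = 0.934) and RASGRP2 (r = 0.917), INHBE by CHST4 (r = 0.995), AARS1 (r = 0.986) and ABHD17C (r = 0.984), and ACVR2B by PURB (r = 0.993) and USP46 (r = 0.991). SP8 stood at a mean of 3.29 CPM in E7, 31.7 CPM in WNT and 81.1 CPM in WNT_CPI_ACT, and RNF43 at 2.02, 8.52 and 19.4 CPM. WNT5B stood at 1.24, 40.7 and 25.3 CPM in these groups and was highest in WNT, unlike FST. For INHBB, GSDME, CLEC2L and RAB6B came first (r = 0.899, 0.840 and 0.834), on the few counts given above. With the replicate effect removed, RASGRP2 ranked 10 for INHBA, RAB6B 7 for INHBB, ABHD17C 5 for INHBE and USP46 4 for ACVR2B. The other genes named stayed among the first 3.

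**Figure D3:**
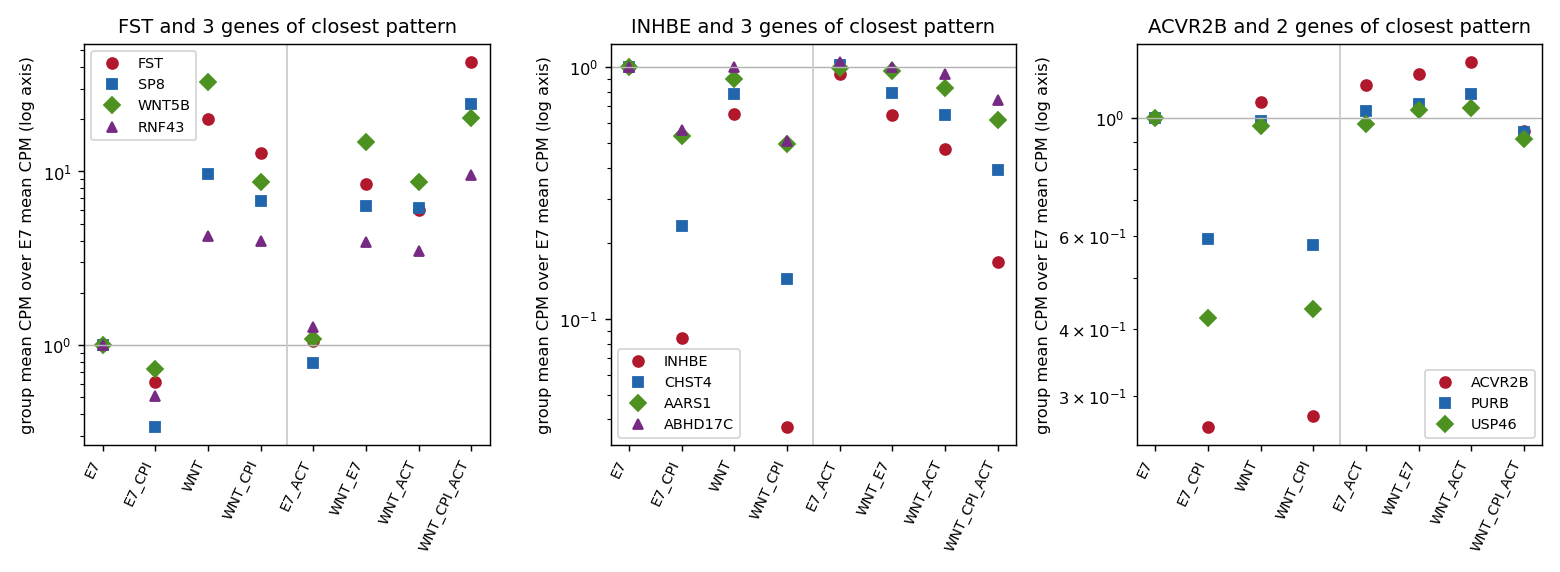
Group means as a ratio to the E7 mean (y axis, log) by group (x axis) of FST and INHBE, each with its 3 genes of most like pattern, and of ACVR2B with 2, as means of 2 libraries. SP8, like FST, is highest in WNT_CPI_ACT, while WNT5B is highest in WNT.

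Of 42 further genes of the pathway, 40 were tested, and the others, CFC1 and MSTN, reached at most 1 and 3 counts. Those said below to rise or fall had an adjusted p of 0.0495 (SMAD6 in WNT_CPI_ACT against WNT_ACT) or less. In E7_CPI against E7, 4 rose and 9 fell (median log2 fold change -0.05, against -0.05 for all genes), and in WNT_CPI against WNT, 3 rose and 9 fell (median -0.79 against -0.01). TDGF1, a co-receptor for Nodal, fell by 4.32 and 5.47 on the log2 scale, FOXH1, a partner of SMAD2, by 4.14 and 4.90, and SKIL, a repressor of SMADs, by 4.25 and 4.33 in these 2 comparisons. GDF3, a ligand of the same family, went from 11.1 to 0.0972 CPM without Wnt3a and from 35.2 to 0.0243 CPM with it. With 13 and 12 of 40 called, beside 32.7% and 31.0% of all genes, these counts are near the background. Without E7_CPI replicate 1, fewer of the 40 were called in both comparisons, as among all genes. TDGF1, FOXH1 and SKIL then stood at -4.26, -4.05 and -4.20 in E7_CPI against E7 (adjusted p = 0.00446, 0.00207 and 0.0101), and GDF3 was called as well (adjusted p = 0.014).

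In E7_ACT against E7, 7 of the 40 rose and 0 fell (median 0.57 against 0.01 for all genes), beside 0.599% of all genes called. With the block 11 rose and 1 fell, beside 2.79% of all genes. Fewer were called without E7_CPI replicate 1, as among all genes. LEFTY1, an inhibitor of Nodal that the pathway itself induces, went from 0.143 to 308.1 CPM, and the inhibitory SMAD7 and SMAD6 rose by 3.11 each on that scale and PMEPA1, another inhibitor, by 2.76. In WNT_ACT against E7_ACT, where 3.84% of all genes were called, 2 fell, the protease gene PCSK5 by 2.20 and SMAD7 by 1.70. Here too fewer were called without E7_CPI replicate 1, as among all genes. In WNT_CPI_ACT against WNT_ACT 2 rose and 3 fell (median -0.65 against 0.00), beside 5.90% of all genes. With the block 3 rose and 12 fell, beside 15.1% of all genes. Fewer were called without E7_CPI replicate 1, as among all genes. NODAL, the ligand, fell by 4.55, PMEPA1 by 2.43 and SMAD6 by 1.72, while WFIKKN2, a binder of related ligands, had 3 counts over the 2 WNT_ACT libraries and 39 over those of WNT_CPI_ACT.

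From WNT_CPI to WNT_CPI_ACT, 14 of the 40 rose and 4 fell (median 0.84 against -0.01), beside 26.9% of all genes. With the block 19 rose and 7 fell, beside 42.7% of all genes. TDGF1 rose by 4.71 and LEFTY2, which like LEFTY1 restrains Nodal, by 6.89, to 43.2 and 1.02 CPM in replicates 1 and 2 of WNT_CPI_ACT. CER1, an antagonist of Nodal and BMP, was at 0 and 0.0487 CPM in WNT_CPI and at 138 and 0 CPM in WNT_CPI_ACT, so that its rise rests on 1 library. In WNT against E7, WNT_CPI against E7_CPI, WNT_ACT against WNT_E7, WNT_E7 against WNT and the difference of the Wnt3a responses, 0 of the 40 were called by edgeR. At an unadjusted p under 0.05 there were 5, 3, 10, 0 and 0 in that order, DESeq2 called 2, 0, 6, 0 and 1, and the block 1, 1, 3, 0 and 0. Of all 17355 genes, 1064, 1018, 1747, 397 and 442 had an unadjusted p under 0.05 in that order. DESeq2 called 308, 223, 690, 12 and 37 of them, and the block 299, 259, 773, 4 and 22.

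**Figure D4:**
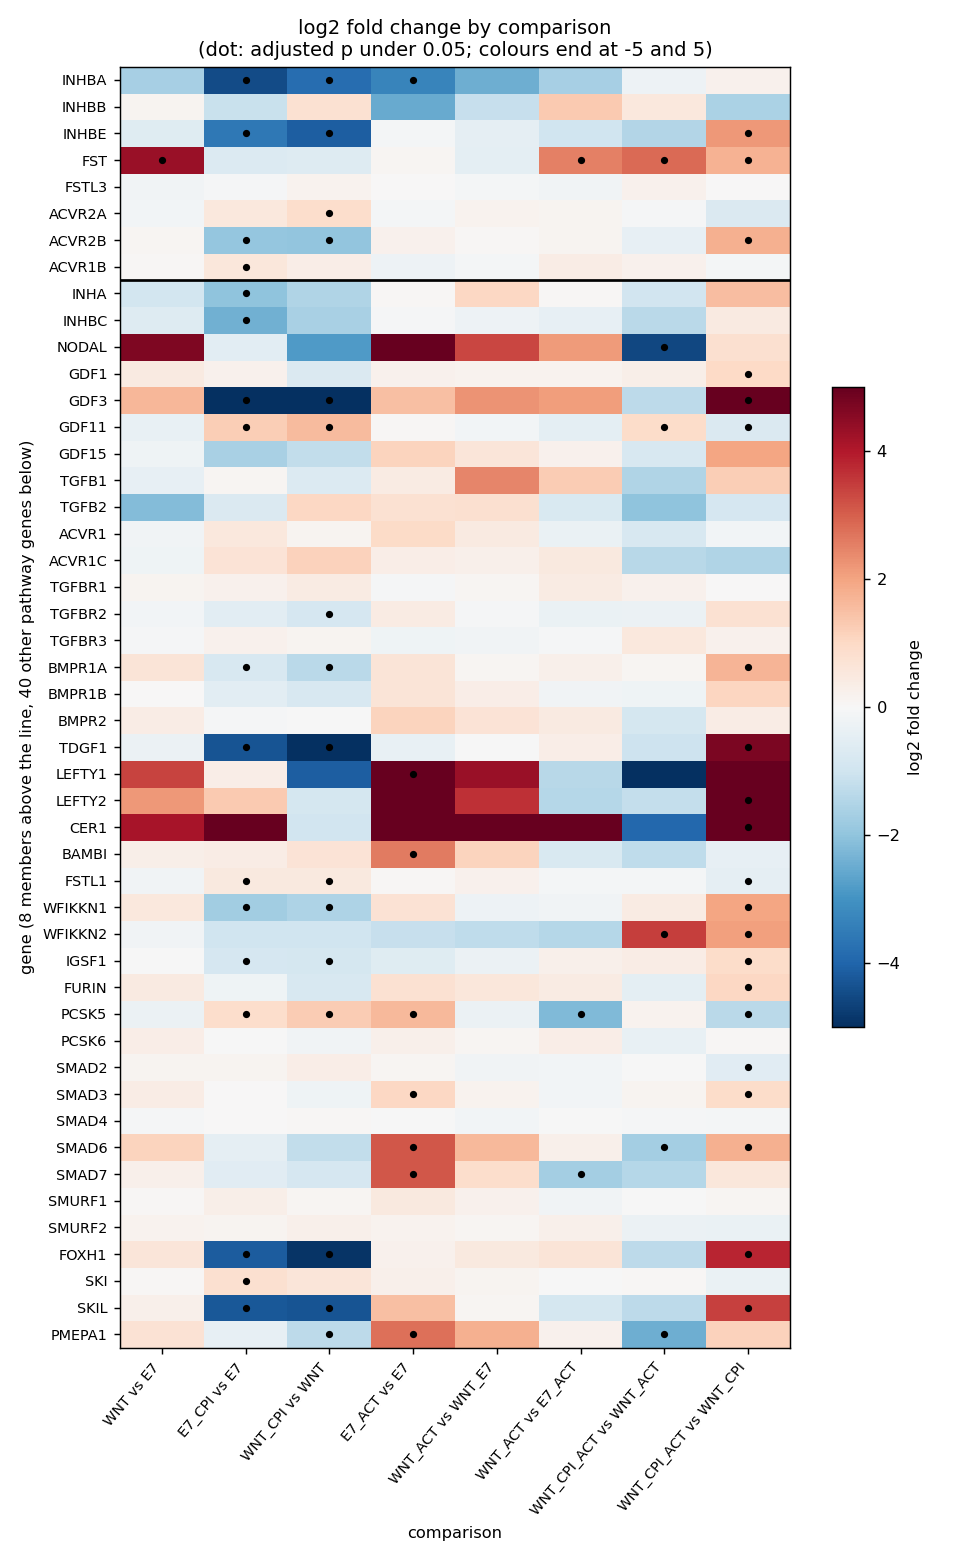
Log2 fold changes of the 8 members and 40 other pathway genes (rows) in 8 comparisons (columns), with colours ending at -5 and 5 and a dot for each call. FST has a dot in 4 of the 8 columns and FSTL3 in 0.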

How the data were processed

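RNA was measured in 16 libraries. The deposited values were raw counts per gene, 1 table for each replicate number, with Entrez IDs and symbols. Per the submitters' processing notes, featureCounts, DESeq2, Bowtie2, deepTools and MACS2 were used; the aligner and build behind the RNA counts are not given in the sources used here. Positions in the other deposited file, a combined list of 313223 ATAC peaks in another unit (base pairs, per the file headers), run past the end of GRCh38 chromosome 1 and carry no values, so it was not used.

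Members and lists were chosen with earlier results of these data known. The column of E7_CPI replicate 1 had 12 empty cells, and its other 27348 values were matched to genes by the row order of the replicate 2 table.

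Counts were tested with edgeR 4.0.16 (R 4.3.3, limma 3.58.1): filterByExpr by group, TMM factors of 0.948 to 1.05, the 2-sided quasi-likelihood test in 1 model of 8 groups (8 residual degrees of freedom) and Benjamini-Hochberg adjustment over 17355 genes. Standard errors are the size of the log2 fold change over the square root of F. Levels are CPM from TMM-scaled totals, and correlations used log2 CPM with a prior count of 2. The tests were checked on simulated data.

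The named genes are the members, up to 4 called pathway genes of largest log2 fold change in a comparison, and for each member whose log2 group means span 2 or more, the 3 genes of highest r, of which 1 for ACVR2B is not reported here. Same-numbered samples deviated together in 7 groups: over 13968 genes, r of their deviations from the group mean was 0.457 to 0.898 for each of the 21 group pairs that leave out E7_CPI, and -0.115 to -0.0353 for pairs that include it. The common coefficient of biological variation was 0.271, and 0.147 with the block. Alternatives were the replicate block, RLE scaling, library totals, no filter, DESeq2 1.42.0, and each library left out in turn; leaving E7_CPI replicate 1 out of all comparisons, and with the block, was chosen after seeing the data. Columns of samples of other series numbered 0.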

Additional observations from a re-analysis of the deposited data

Results flagged for a closer look

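For 4 genes the CPI-203 effect differed between the 2 time points in a test of the difference itself (WNT_CPI_ACT against WNT_ACT, less WNT_CPI against WNT, by edgeR's quasi-likelihood test). The log2 fold change was higher at 48 h by 3.47 for FST, by 3.55 for INHBA, by 2.64 for INHBE and by 1.53 for ACVR2B. The adjusted p was 0.00171, 0.0211, 0.0233 and 0.00134. The comparison was added after the values were seen. The call of INHBA was lost when any 1 of 4 libraries was left out (WNT_CPI replicates 1 and 2, WNT replicate 2 and WNT_CPI_ACT replicate 2, with an adjusted p of up to 0.0775), and that of INHBE when any 1 of 5 was (the same 4 and WNT_ACT replicate 1, up to 0.0836). INHBA stood at 2 to 10 counts in 3 of the 4 groups compared, WNT_ACT among them. A fall of INHBA with CPI-203 at 48 h could thus hardly have shown, so its difference largely restates its fall at 24 h. Time, Activin A and the day since CPI-203 was added differ together and cannot be told apart.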

How the results depend on the processing

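A member result entered this count if its log2 difference was at least 0.4 in size or if it was called under any setting. The differences of the Wnt3a responses of FST and ACVR2B were added. INHBB and the other small differences were left out, so their stability is not counted here. Of 485 alternative values of the 42 member results kept, 426 kept their direction and side of the threshold, 30 lost the call, 21 gained it and 8 changed sign. The sign changes were in small values: the difference of the Wnt3a responses was -0.11 for FST with the block and without E7_CPI replicate 1 (-0.0060 to 0.10 over single libraries left out) and 0.011 for ACVR2B with library totals (-0.17 to 0.093), and FST in WNT_ACT against WNT_E7 ran from -1.02 to 0.36.

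In the order edgeR, replicate block, DESeq2, and block without E7_CPI replicate 1, counts of called genes were 105, 299, 308 and 414 in WNT against E7, 104, 485, 442 and 741 in E7_ACT against E7, 153, 773, 690 and 1130 in WNT_ACT against WNT_E7, 0, 4, 12 and 7 in WNT_E7 against WNT, 667, 1509, 1126 and 2024 in WNT_ACT against E7_ACT, 1024, 2619, 1819 and 3590 in WNT_CPI_ACT against WNT_ACT, and 2, 22, 37 and 7 for the difference of the Wnt3a responses. The block alone moved E7_CPI against E7 from 5671 to 8816 genes (7834 without E7_CPI replicate 1), and WNT_CPI against E7_CPI from 67 to 259 (95 without E7_CPI replicate 1), with 223 by DESeq2. With the block, and with it and without E7_CPI replicate 1, WNT_CPI against WNT went from 5374 to 8227 and 9417, WNT_CPI_ACT against WNT_CPI from 4667 to 7414 and 8608, and the difference of the CPI-203 effect from 2313 to 4661 and 5923. The block changed no other member call than those given with the results.

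Leaving out single libraries gave 16 to 76 genes in WNT against E7, 3121 (without E7_CPI replicate 1) to 4094 (without E7 replicate 2) in E7_CPI against E7, 3544 (without WNT replicate 2) to 4722 in WNT_CPI against WNT, 15 (without E7_CPI replicate 1) to 49 (without WNT_CPI replicate 2) in WNT_CPI against E7_CPI, 0 to 2 for the difference of the Wnt3a responses, 9 to 50 in E7_ACT against E7, 0 (without WNT_E7 replicate 1) to 237 (without WNT_ACT replicate 2) in WNT_ACT against WNT_E7, 0 in WNT_E7 against WNT, 83 to 557 in WNT_ACT against E7_ACT, 308 to 767 in WNT_CPI_ACT against WNT_ACT, 2897 to 4063 in WNT_CPI_ACT against WNT_CPI and 1415 to 1990 for the difference of the CPI-203 effect. E7_CPI against E7 gave 3161 genes without E7_CPI replicate 2 and 3595 without E7 replicate 1. A group left with 1 library is assumed to vary like the others. The ACVR1B call in E7_CPI and the ACVR2A call in WNT_CPI were also lost with library totals (adjusted p = 0.0723 and 0.0694) and with no filter (0.0572 and 0.0582). With 2 libraries per group and INHBA at 2 to 10 counts in 4 groups, differences among those groups were not detectable.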
